A study of Mus musculus with 36 samples.

Results

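The genes described here encode the class II and class IV histone deacetylases of the mouse. Hdac4, Hdac5, Hdac7 and Hdac9 form class IIa, Hdac6 and Hdac10 form class IIb, and Hdac11 is the single class IV gene. The members were chosen by name, as the rows of a gene-level count table whose Ensembl identifiers belong to these 7 symbols, and they make up 7 of its 54347 genes. All 7 were among the 15340 genes that passed the filter on low counts.

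RNA-seq was carried out on 36 libraries of primary cells of C57Bl/6 male mice, 3 in each of 12 groups, to compare how 4 cell types responded to the ketone body β-hydroxybutyrate (βOHB) and to butyrate, a short-chain fatty acid known as an inhibitor of histone deacetylases. Adipocytes had been differentiated from the stromal vascular fraction of inguinal white fat pooled from several mice, macrophages from femoral bone marrow in L929-conditioned medium, and myotubes from hindlimb myoblasts, and hepatocytes of C57BL/6NHsd mice had been obtained by collagenase perfusion of the liver. Treatment lasted 6 h, with PBS as the control and each compound at 5 mM. Adipocytes and macrophages were treated in the same kind of medium, myotubes and hepatocytes each in their own, so cell type and medium cannot be told apart in a comparison that involves either of these. In comparisons with hepatocytes, the substrain named for them cannot be told apart from cell type either. Some primary cells were obtained in Munich, and the authors do not say which. The labels do not say that the 3 libraries of a group came from separate cultures or animals, so the p-values measure the spread between these libraries, which may be technical.

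Zinc-dependent deacetylases remove acetyl groups from lysines of histones and other proteins. Class IIa members have weak catalytic activity of their own. They repress transcription by binding MEF2 factors and by recruiting HDAC3 through the NCoR/SMRT complex, and kinases of the CaMK, PKD, SIK and MARK families send them out of the nucleus, where 14-3-3 proteins hold them. Class IIb members act largely in the cytoplasm, HDAC6 on α-tubulin and cortactin and HDAC10 on acetylated polyamines, and HDAC11 removes long fatty acyl groups from lysine. In muscle and liver, class IIa members are known for the control of myogenic and gluconeogenic genes.

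Library totals lay between 18366289 and 23221473 estimated counts, with a median of 22177562. Markers fixed for each cell type were high in the cells so labelled: summed CPM, the count of a gene scaled to the effective size of its library, ranged from 13100 to 17800 over the 9 adipocyte libraries for adipocyte markers, from 10500 to 17100 over the macrophage libraries for macrophage markers, from 10900 to 25100 over the myotube libraries for myotube markers and from 33200 to 43200 over the hepatocyte libraries for hepatocyte markers. The 3 myotube butyrate libraries and the third myotube βOHB library also held hepatocyte markers, at 30.8, 555, 127 and 24.4 CPM, that is at most 1.31% of the level in hepatocytes given butyrate. The third myotube butyrate library further stood apart in its myotube markers, at 10900 CPM against 15300 and 14900 in its group, and in its fibroblast markers, at 1700 CPM against 1160 and 1190. In such bulk libraries, fewer cells of a type and less RNA per cell cannot be told apart.

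The promoters of members that rose or fell are shown first, so that their composition can be set beside the responses. RefSeq windows of GRCm38.p6 that run from 250 bases before to 50 after a start site were at hand for 6 of the 7 members. Capitals mark a GC box (GGGCGG, read on either strand) or a match to the MEF2 consensus. Hdac5, Hdac6 and Hdac11 were raised by butyrate in all 4 cell types, and Hdac7 was lowered in all 4. Hdac9 was lowered in adipocytes and myotubes.
Hdac5, chr11:102230123-102230422, minus strand: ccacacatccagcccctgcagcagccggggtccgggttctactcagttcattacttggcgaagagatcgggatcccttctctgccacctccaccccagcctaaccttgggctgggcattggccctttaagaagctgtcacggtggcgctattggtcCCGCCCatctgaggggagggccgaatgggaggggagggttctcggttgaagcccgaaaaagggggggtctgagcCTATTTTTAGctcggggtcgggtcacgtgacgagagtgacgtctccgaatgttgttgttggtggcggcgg
Hdac6, chrX:7947840-7948139, minus strand: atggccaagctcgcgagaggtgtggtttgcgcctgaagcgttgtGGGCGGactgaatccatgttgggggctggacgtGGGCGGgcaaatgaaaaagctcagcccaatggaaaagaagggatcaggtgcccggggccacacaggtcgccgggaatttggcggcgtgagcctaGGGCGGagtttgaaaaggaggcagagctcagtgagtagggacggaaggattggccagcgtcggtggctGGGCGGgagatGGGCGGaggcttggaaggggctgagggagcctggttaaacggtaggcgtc
Hdac11, chr6:91156565-91156864, plus strand: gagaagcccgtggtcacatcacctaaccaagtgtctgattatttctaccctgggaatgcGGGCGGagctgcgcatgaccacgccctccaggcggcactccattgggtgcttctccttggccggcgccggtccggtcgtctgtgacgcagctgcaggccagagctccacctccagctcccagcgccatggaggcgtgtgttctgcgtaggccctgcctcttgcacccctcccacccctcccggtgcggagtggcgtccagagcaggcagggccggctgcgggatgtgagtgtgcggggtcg
Hdac7, chr15:97831446-97831745, minus strand: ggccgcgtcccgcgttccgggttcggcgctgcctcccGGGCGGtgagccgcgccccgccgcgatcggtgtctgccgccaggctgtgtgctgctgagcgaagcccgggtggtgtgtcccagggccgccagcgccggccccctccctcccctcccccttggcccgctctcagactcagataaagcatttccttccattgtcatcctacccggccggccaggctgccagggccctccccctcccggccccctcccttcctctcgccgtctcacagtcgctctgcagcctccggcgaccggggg
Hdac9, chr12:34917046-34917345, minus strand: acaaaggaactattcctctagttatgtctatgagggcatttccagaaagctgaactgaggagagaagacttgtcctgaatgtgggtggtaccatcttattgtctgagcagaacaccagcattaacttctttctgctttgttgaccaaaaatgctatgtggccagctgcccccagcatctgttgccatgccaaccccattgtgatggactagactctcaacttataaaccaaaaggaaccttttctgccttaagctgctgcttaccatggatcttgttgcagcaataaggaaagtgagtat

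The Hdac6 window held 5 GC boxes, as did that of Hdac4, which is not shown. Those of Hdac5, Hdac11 and Hdac7 held 1 each, for Hdac7 in the window shown of its 4. The letters GGGCGG occurred in neither window of Hdac9, and 35.7% of all 32851 windows of this length held them. The Hdac5 window had the only match to the MEF2 consensus among the 10 windows of the members, 20 bases before the start, where 3.19% of all windows have one. That of Hdac9 held the letters TATAAA 29 bases before the start, a TATA box present in 13.6% of all windows. G and C made up 44% of the Hdac9 window shown and 45.3% of its other window, against a median of 52.7% over all windows. They made up 73.7% of the Hdac7 window shown, the highest of its 4 windows, and 54.7, 60.7 and 65.7% of the others. CCAAT, searched on both strands, occurred at 2 places in the windows of Hdac4, Hdac5 and Hdac6, at 1 in that of Hdac11 and in no window of Hdac7 or Hdac9, with 37.4% of all windows holding it. These are matches of letters and no measurement of binding.

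In control cells the members varied widely per kilobase of annotated exon, the scale on which genes can be compared. Hdac5, the class IIa member known from muscle and heart, was first in macrophages at 12.2 CPM per kb, in myotubes at 10.7 and in hepatocytes at 7.7. In adipocytes Hdac7, known from endothelial cells and thymocytes, stood at 7.57 CPM per kb and Hdac5 at 6.59, and this order turned with the longest transcript as the length (9.86 for Hdac7 and 10.7 for Hdac5). At the low end, Hdac9 was at 0.181 CPM per kb in adipocytes and 0.00834 in hepatocytes, Hdac11 at 0.208 in macrophages, with Hdac10 the lowest in myotubes at 1.55. The sum over the 7 genes was much alike among controls, at 21 CPM per kb in adipocytes, 22.8 in macrophages, 25.3 in myotubes and 21.7 in hepatocytes. With butyrate the sums were 25, 25.3, 29.7 and 33.5 CPM per kb in the same order.

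**Figure D1:**
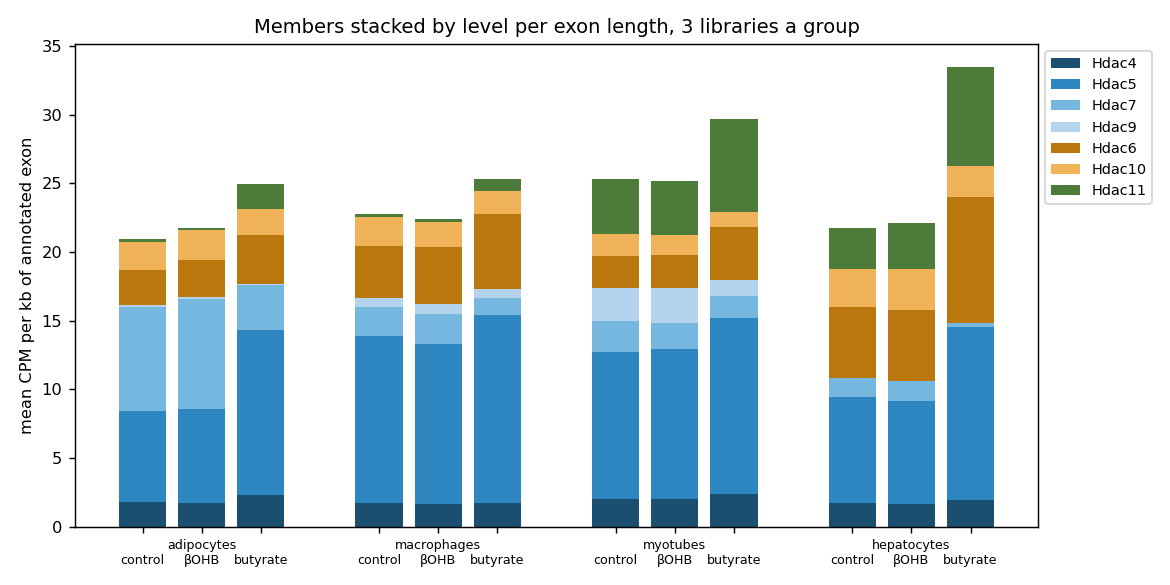
Stacked mean level of the 7 genes in each of the 12 groups (mean of 3 libraries), in CPM per kilobase of annotated exon. Hdac5 (mid blue) takes the widest band in 3 of the 4 control cell types, and the hepatocyte butyrate bar is the tallest, at 33.5.

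Between cell types, the control levels differed in 4 to 7 of the 7 members for each pair of cell types, 34 of 42 tests in all (edgeR quasi-likelihood test, adjusted p below 0.05). Over all genes tested, 77.5% (adipocytes and macrophages), 78.2% (adipocytes and myotubes), 81.1% (adipocytes and hepatocytes), 82.2% (macrophages and myotubes), 82.1% (macrophages and hepatocytes) and 86.6% (myotubes and hepatocytes) differed, beside 4, 5, 6, 6, 6 and 7 of the 7 members. Hdac9, a class IIa member of muscle and T cells, had the widest range of control levels on the log2 scale, from 35.7 ± 2.58 CPM (SD, n = 3) in myotubes through 10.1 ± 0.583 in macrophages and 2.66 ± 0.77 in adipocytes to 0.123 ± 0.107 in hepatocytes, and every neighbour in that order differed. The low end of this range rests on 1, 4 and 1 counts in the hepatocyte controls. Hdac11 stood at 15.5 ± 1.24 CPM in myotubes and 11.5 ± 2.25 in hepatocytes (edgeR adjusted p = 0.00126 between them), and at 0.9 ± 0.109 in adipocytes and 0.799 ± 0.0502 in macrophages, where these last did not differ beyond their spread (edgeR adjusted p = 0.566).

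Hdac7 was highest in adipocytes at 51.1 ± 1.54 CPM (SD, n = 3), followed by myotubes at 15.1 ± 0.526 and macrophages at 14.1 ± 1.7, which did not differ beyond their spread (edgeR adjusted p = 0.487), and by hepatocytes at 9.5 ± 0.683. Hdac5 fell in the order macrophages (107 ± 2.06 CPM), myotubes (93.9 ± 3.64), hepatocytes (67.6 ± 5.57) and adipocytes (57.9 ± 1.01), with every neighbour different. Hdac6 was highest in hepatocytes at 30.1 ± 2.02 CPM and then in macrophages at 21.8 ± 0.177, while adipocytes (14.7 ± 0.255) and myotubes (13.7 ± 0.769) did not differ beyond their spread (edgeR adjusted p = 0.229). Hdac4 and Hdac10 varied least between the cell types. Hdac4 went from 31.8 ± 0.163 CPM in myotubes to 28.9 ± 1.23 in adipocytes, 27.1 ± 2.31 in hepatocytes and 26.9 ± 2.18 in macrophages, and no neighbours in this order differed, although myotubes were above macrophages (edgeR adjusted p = 0.00195). Hdac10 went from 9.28 ± 0.778 CPM in hepatocytes to 7.3 ± 0.82 in macrophages, 6.9 ± 0.708 in adipocytes and 5.24 ± 0.0731 in myotubes, and of these neighbours macrophages and adipocytes did not differ beyond their spread (edgeR adjusted p = 0.531).

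**Figure D2:**
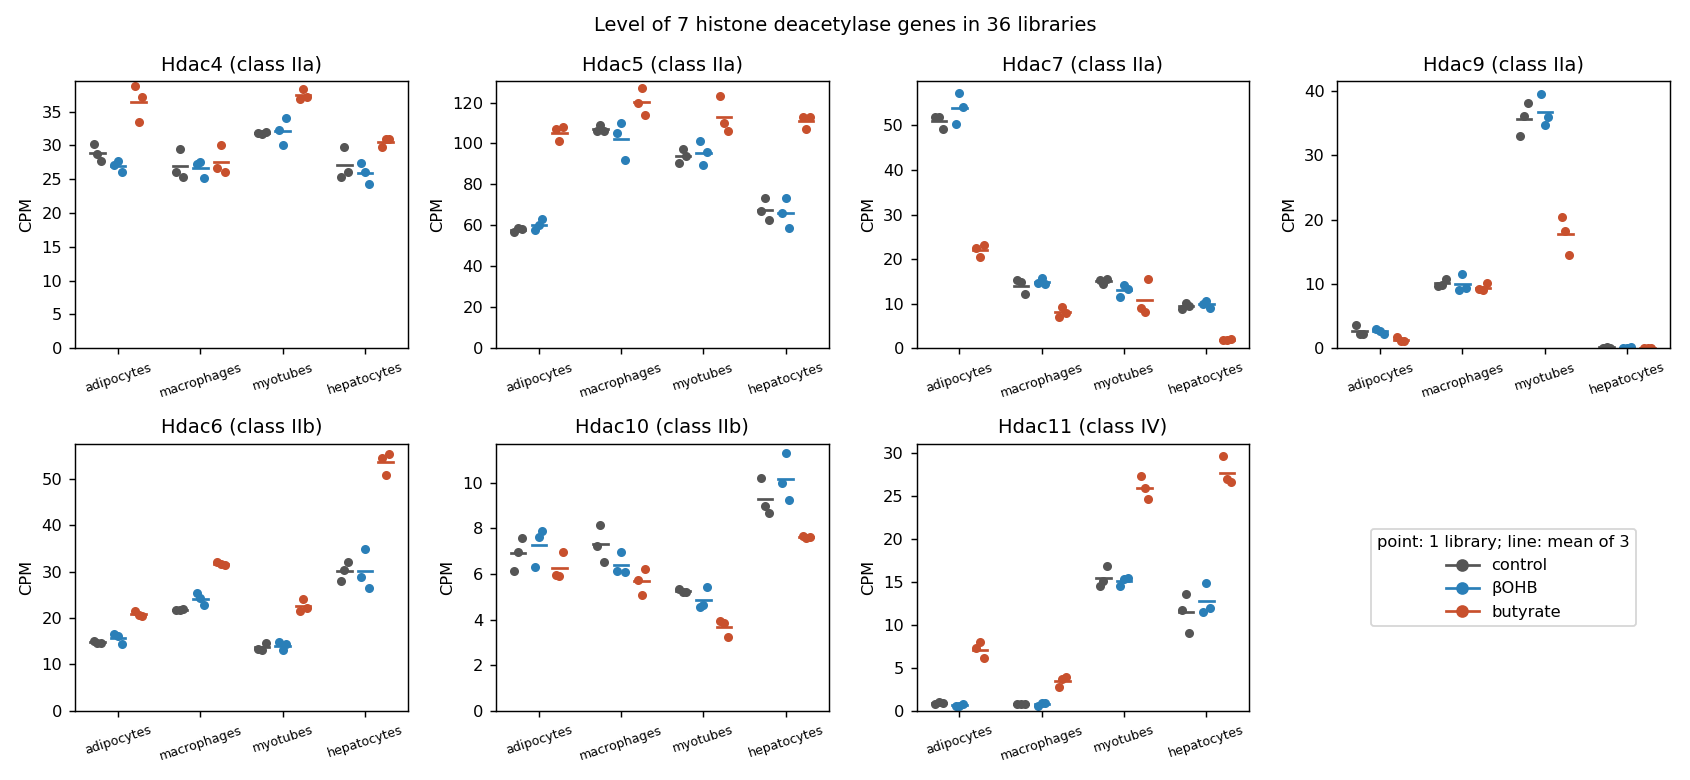
Level of each of the 7 genes, in CPM on a linear axis from 0, in the 36 libraries by cell type and treatment. Each point is 1 library and each line the mean of 3, with Hdac11 and Hdac6 above their controls in every butyrate library and Hdac7 below its control mean in all of them but the third myotube library.

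Butyrate changed most members in each cell type. It altered 6 of 7 in adipocytes, 5 in macrophages, 7 in myotubes and 7 in hepatocytes, where 61, 65, 66.5 and 63.5% of all genes tested were altered, so at a share of this size a call alone says little about a member, and its direction and size are given below. Of the 28 combinations of member and cell type, 15 were raised and 10 lowered. Members were raised in 4, 3, 4 and 4 cases in adipocytes, macrophages, myotubes and hepatocytes (30.7, 31.9, 33.1 and 31% of all genes) and lowered in 2, 2, 3 and 3 cases (30.3, 33.2, 33.4 and 32.4% of all genes). No member was called as raised in one cell type and lowered in another. Hdac4, Hdac5, Hdac6 and Hdac11 were the raised genes, and Hdac7, Hdac9 and Hdac10 the lowered ones. Markers of the cells moved as well. Summed macrophage markers went from 17000 to 17100 CPM in macrophage controls to 10500 to 11100 with butyrate (3 of 6 lowered), and summed proliferation markers there from 1400 to 1430 CPM to 558 to 657 (4 of 4 lowered). In myotubes the proliferation markers went from 33.8 to 73.5 CPM to 15.9 to 21.1 (3 of 4 lowered), in hepatocytes from 7.5 to 12.5 CPM to 17.5 to 19.5 (2 of 4 raised), and in adipocytes 0 of 4 passed the test, at 44.2 to 93 CPM and 57.6 to 68. Adipocyte markers in adipocytes went from 15900 to 17200 CPM to 13100 to 14500 (3 of 5 lowered), while of the hepatocyte markers in hepatocytes 0 of 5 passed the test, at 36500 to 38300 CPM and 40800 to 43200. The part of these shifts in the butyrate values of the members was not tested.

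**Figure D3:**
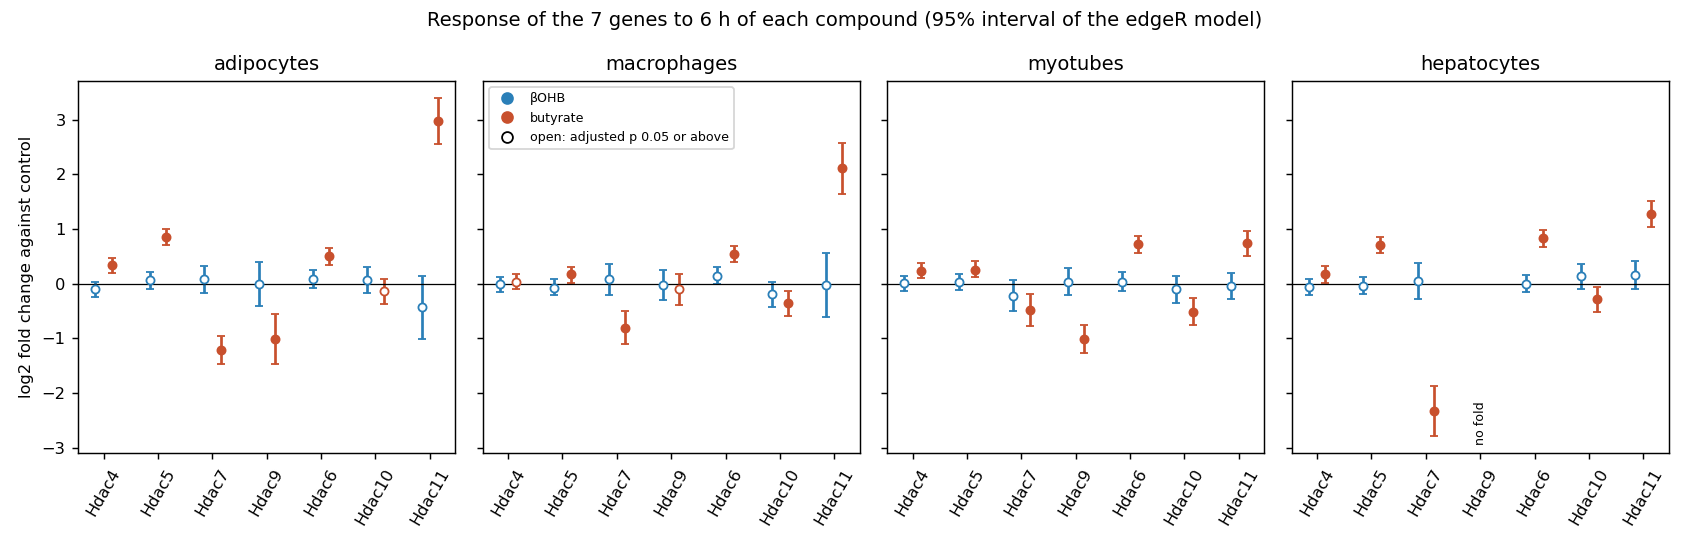
Log2 fold change of each gene against the control of its cell type, for βOHB (blue) and butyrate (red), with 95% intervals of the edgeR model and open symbols where the adjusted p was 0.05 or above. Every βOHB symbol is open, while under butyrate Hdac11 is highest in adipocytes at 2.98 and Hdac7 lowest in hepatocytes at -2.33; no fold is drawn for Hdac9 in hepatocytes.

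Among class IIa genes, Hdac5 (ENSMUSG00000008855.17, GRCm38 chr11:102194432-102230166, minus strand) rose in all 4 cell types. In adipocytes the controls were at 56.8, 58.8 and 58 CPM and the butyrate libraries at 107, 101 and 108, a rise of 0.86 ± 0.07 on the log2 scale (SE, edgeR adjusted p = 1.18e-11), or 1.82-fold. In hepatocytes 67, 73.5 and 62.4 CPM became 113, 107 and 113, a log2 fold change of 0.71 ± 0.07 (edgeR adjusted p = 5.46e-10). In both of these cell types the butyrate libraries all lay far above the controls, which had been the lowest of the 4 cell types for this gene, and the group levels with butyrate came together at 105 to 120 CPM. Myotubes went from 90.3, 97.5 and 93.8 CPM to 123, 110 and 106, a log2 fold change of 0.26 ± 0.07 (edgeR adjusted p = 0.00166). The rise was smallest in macrophages, from 106, 109 and 106 CPM to 120, 127 and 114, at 0.17 ± 0.07 (edgeR adjusted p = 0.0403). That last call was lost without the filter on low counts (edgeR adjusted p = 0.129) and without control library 1, 2 or 3 or butyrate library 2 (edgeR adjusted p = 0.094, 0.0516, 0.0916 and 0.113), where the log2 fold change was 0.14 to 0.18.

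Hdac4 (ENSMUSG00000026313.16, GRCm38 chr1:91928779-92195699, minus strand), known from bone and muscle, was raised in adipocytes, myotubes and hepatocytes, and its change in macrophages was not called. Adipocyte controls were at 30.2, 28.7 and 27.7 CPM and butyrate libraries at 38.8, 33.4 and 37.2, a log2 fold change of 0.34 ± 0.07 (edgeR adjusted p = 9.05e-05). In myotubes 31.9, 31.7 and 32 CPM became 36.9, 38.4 and 37.1, at 0.24 ± 0.07 (edgeR adjusted p = 0.00315). The groups did not overlap in these cells, although the myotube call was lost without the filter on low counts (edgeR adjusted p = 0.126). Hepatocytes had 25.4, 29.7 and 26.1 CPM in controls and 29.7, 30.9 and 30.9 with butyrate, at 0.17 ± 0.07 (edgeR adjusted p = 0.0389). The hepatocyte groups met at 29.7 CPM, and the call was lost without the filter (edgeR adjusted p = 0.135) and without control library 1 or 3 or butyrate library 2 or 3 (edgeR adjusted p = 0.17, 0.128, 0.0913 and 0.0865). Macrophages stood at 26.1, 29.4 and 25.3 CPM against 26.7, 30 and 26 with butyrate, overlapping, with a log2 fold change of 0.04 and a 95% interval of -0.1 to 0.18 (edgeR adjusted p = 0.654). When library totals alone set the scale, which raised the median of all genes in macrophages by 0.19, the Hdac4 value there was 0.26 (edgeR adjusted p = 0.00119), and it was 0 without control library 3 and -0.01 without butyrate library 2. An unstranded count could not separate Hdac4 from Gm26720, a non-coding gene on the other strand that shares 22.4% of its exon bases, and whether the counting used strand is not given in the sources used here.

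Hdac7 (ENSMUSG00000022475.19, GRCm38 chr15:97792664-97844502, minus strand) was the class IIa gene lowered in every cell type. Hepatocyte controls held 8.84, 10.2 and 9.46 CPM and butyrate libraries 1.91, 1.78 and 1.98, a 5.03-fold drop (log2 fold change -2.33 ± 0.23, edgeR adjusted p = 3.28e-11). Adipocytes went from 52, 52 and 49.3 CPM to 22.5, 20.4 and 23.2, a 2.32-fold drop (log2 fold change -1.22 ± 0.13, edgeR adjusted p = 1.11e-09). The groups were widely apart in both cell types. In macrophages 15.3, 14.8 and 12.1 CPM became 6.95, 9.16 and 7.99, a log2 fold change of -0.8 ± 0.15 (edgeR adjusted p = 1.95e-05). Myotube controls were at 15.3, 14.5 and 15.5 CPM and butyrate libraries at 8.95, 8.09 and 15.6, a log2 fold change of -0.48 ± 0.14 (edgeR adjusted p = 0.00368). Of these last, 2 libraries lay near 8 to 9 CPM and the third, the one that stood apart in its markers, at the control level. Without it the myotube value was -0.83 (edgeR adjusted p = 1.03e-07), without butyrate library 2 it was -0.31 (edgeR adjusted p = 0.0545), and with myotube libraries alone in the fit it was -0.46 (edgeR adjusted p = 0.0795).

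Endothelial cells are a known site of Hdac7 expression, and their markers moved with it in some of the cultures. In hepatocytes all 5 endothelial markers were lowered by butyrate (Pecam1, Cdh5, Kdr, Tek and Tie1), and their summed level went from 69.7 to 75.9 CPM in controls to 22.6 to 25.3 CPM. In adipocytes 2 of 5 were lowered, and the sum went from 185 to 213 CPM to 126 to 144. For macrophages the sums overlapped, with 42.8 to 62.1 CPM in controls, 46 to 53.1 with butyrate and 3 of 5 markers lowered. Kdr made up most of these sums, at a mean of 38.6 CPM in controls and 45.1 with butyrate. The means of the others were lower with butyrate. Pecam1 went from 4.3 to 2.07 CPM, Cdh5 from 6.86 to 2.47, Tek from 0.218 to 0.112 and Tie1 from 1.63 to 0.686. Myotube sums were low, at 4.05 to 13.1 CPM in controls and 8.5 to 15.2 with butyrate, with the highest of the butyrate values in the third library. Of the 5 markers 1 was raised and 1 lowered there. Mean levels in myotubes went from 1.09 to 7.23 CPM for Kdr and from 2.45 to 2.93 for Cdh5. They went from 0.435 to 0.418 CPM for Pecam1, from 3.14 to 0.292 for Tek and from 0 to 0.0284 for Tie1. Of all genes tested, butyrate lowered 30.3, 33.2, 33.4 and 32.4% in adipocytes, macrophages, myotubes and hepatocytes. No marker of the list was at 0 in all libraries of a hepatocyte or adipocyte group. With βOHB the hepatocyte sum was 67.2 to 79.9 CPM. The part of endothelial cells in the Hdac7 result was not tested.

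**Figure D4:**
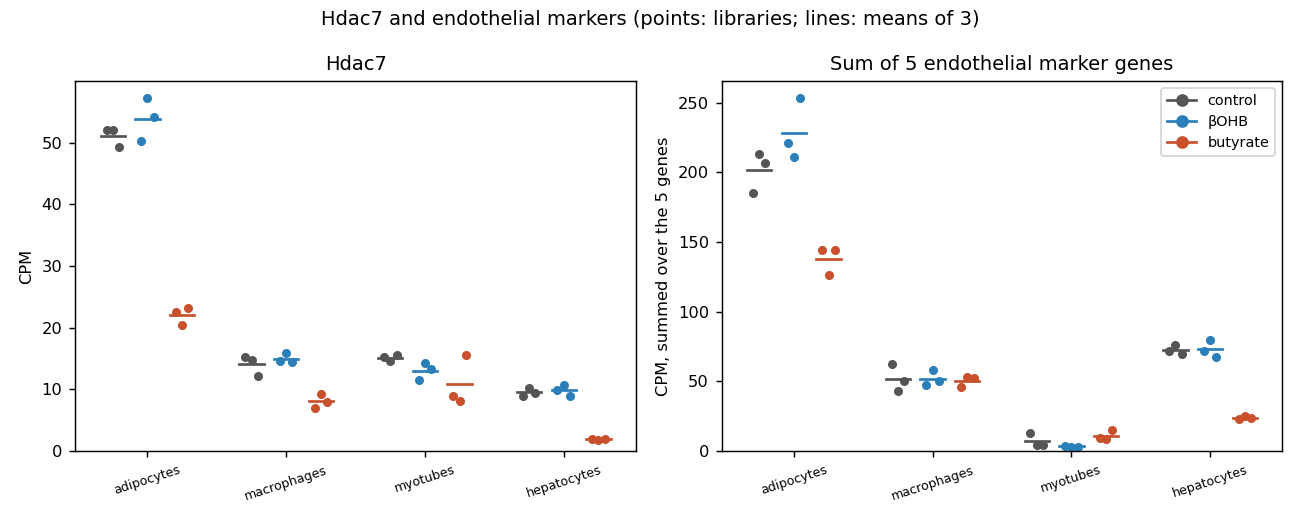
Level of Hdac7 (left) and the summed level of 5 endothelial marker genes (right), both in CPM from 0, by cell type and treatment, with 1 point per library and lines at the mean of 3. In hepatocytes and adipocytes both panels have their butyrate points below the controls, while in macrophages Hdac7 is lower and the marker sums overlap. Kdr makes up most of the macrophage sums.

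Hdac9 (ENSMUSG00000004698.10, GRCm38 chr12:34047580-34917095, minus strand) fell in myotubes, where it was most abundant, and in adipocytes, while a change in macrophages, second in abundance, was not called. Myotube controls held 33, 36.1 and 38.1 CPM and butyrate libraries 20.4, 18.2 and 14.5, a 2.02-fold drop (log2 fold change -1.01 ± 0.12, edgeR adjusted p = 2.52e-08), and the fall remained without the third butyrate library at -0.89 (edgeR adjusted p = 3.18e-07). Adipocytes went from 3.55, 2.2 and 2.24 CPM to 1.73, 1.11 and 1.17, a drop of nearly the same size from a much lower level (log2 fold change -1.01 ± 0.23, edgeR adjusted p = 0.000242). The groups did not overlap in either cell type. In the myotube controls the summed myotube markers lay at 18100 to 22300 CPM, against 10900 to 15300 with butyrate, with 3 of 5 lowered, and their part in the myotube result was not tested. Macrophages were at 9.71, 9.83 and 10.8 CPM against 9.21, 9.01 and 10.1, overlapping, with a log2 fold change of -0.1 and a 95% interval of -0.38 to 0.18 (edgeR adjusted p = 0.557), and with library totals alone as the scale this value was 0.13. In hepatocytes Hdac9 was next to absent, with 1, 4 and 1 counts in controls and 0 in each butyrate library. The test passed there (edgeR adjusted p = 0.0148), but 5 of these 6 libraries lay at or below the 3 counts that a count of 0 allows, no fold is given, and the call was lost without control library 2 (edgeR adjusted p = 0.101).

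Of class IIb, Hdac6 (ENSMUSG00000031161.15, GRCm38 chrX:7930120-7947889, minus strand), the tubulin deacetylase, rose in all 4 cell types, by 0.5 to 0.83 on the log2 scale. Hepatocytes went from 28, 30.3 and 32 CPM to 54.5, 50.8 and 55.4, a 1.78-fold rise (log2 fold change 0.83 ± 0.07, edgeR adjusted p = 2.56e-11). Myotubes went from 13.3, 13.2 and 14.6 CPM to 21.5, 24.1 and 22.1, at 0.72 ± 0.08 (edgeR adjusted p = 2.64e-09). Without the myotube butyrate library richest in hepatocyte markers, library 2, this was 0.67 (edgeR adjusted p = 7.62e-08). In macrophages 21.8, 21.7 and 22 CPM became 32, 31.7 and 31.5, at 0.54 ± 0.07 (edgeR adjusted p = 2.01e-07), and in adipocytes 15, 14.6 and 14.6 CPM became 21.6, 20.7 and 20.4, at 0.5 ± 0.08 (edgeR adjusted p = 1.97e-06). The control and butyrate groups were separate in every cell type.

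Hdac10 (ENSMUSG00000062906.12, GRCm38 chr15:89123307-89128700, minus strand), the polyamine deacetylase, was the class IIb gene with lower values. Myotubes went from 5.32, 5.2 and 5.19 CPM to 3.95, 3.84 and 3.22, a log2 fold change of -0.51 ± 0.12 (edgeR adjusted p = 0.000567). Macrophages went from 7.21, 8.16 and 6.53 CPM to 5.74, 5.07 and 6.21, at -0.36 ± 0.11 (edgeR adjusted p = 0.00582). The macrophage call was lost when library totals alone set the scale (edgeR adjusted p = 0.28) and without control library 2 (edgeR adjusted p = 0.0509) or butyrate library 2 (edgeR adjusted p = 0.0652). In hepatocytes 10.2, 8.98 and 8.69 CPM became 7.68, 7.58 and 7.63, at -0.28 ± 0.11 (edgeR adjusted p = 0.0304). The hepatocyte libraries did not overlap, yet this call was kept in only 5 of 14 settings, with values of -0.21 to -0.29 where it was lost. It was lost by DESeq2 (adjusted p = 0.0626), with library totals, with no filter, with another filter, with hepatocyte libraries alone and without control library 1 or any one of the butyrate libraries. Adipocytes stood at 6.15, 6.98 and 7.56 CPM against 5.96, 5.9 and 6.96, overlapping, at -0.14 with a 95% interval of -0.37 to 0.09 (edgeR adjusted p = 0.303).

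Hdac11 (ENSMUSG00000034245.10, GRCm38 chr6:91156665-91174692, plus strand), the class IV gene, had the highest fitted rise among the members in each cell type, although in myotubes its value was close to that of Hdac6 (0.74 and 0.72). In adipocytes 0.779, 0.991 and 0.929 CPM became 7.34, 7.96 and 6.1, a 7.89-fold rise (log2 fold change 2.98 ± 0.21, edgeR adjusted p = 8.62e-15). Macrophages went from 0.763, 0.857 and 0.779 CPM to 2.83, 3.66 and 3.89, a 4.33-fold rise (log2 fold change 2.11 ± 0.23, edgeR adjusted p = 2.4e-10). These were the cells with the least Hdac11 at the start, at 17 to 23 counts per control library, and with butyrate they still lay below the controls of the other cell types. Hepatocytes went from 11.7, 13.6 and 9.11 CPM to 29.6, 26.9 and 26.6 (log2 fold change 1.28 ± 0.12, edgeR adjusted p = 6.24e-11), and myotubes from 14.5, 15.1 and 16.9 CPM to 27.3, 25.9 and 24.6 (0.74 ± 0.11, edgeR adjusted p = 8.69e-07). The myotube rise was 0.74 without butyrate library 2 and 0.78 without library 3. Exon bases of Hdac11 are shared with Gm44002 (15.4%) and Gm14573 (2.49%) on the other strand, whose reads cannot be separated from it without strand.

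No change of a member with βOHB passed the test. At an adjusted p below 0.05 edgeR called 0 of 7 in each cell type, where it called 0.00652% of all genes in adipocytes, 0% in macrophages, 2.91% in myotubes and 0.00652% in hepatocytes. No member had an unadjusted p below 0.05 in any cell type, and DESeq2 and limma-voom also called 0 in each. The lowest unadjusted p was 0.136 in adipocytes, 0.0601 in macrophages, 0.131 in myotubes and 0.197 in hepatocytes. Log2 fold changes ran from -0.43 to 0.09 in adipocytes, from -0.19 to 0.15 in macrophages, from -0.22 to 0.04 in myotubes and from -0.41 to 0.16 in hepatocytes.

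The lowest unadjusted p of all was that of Hdac6 in macrophages (edgeR unadjusted p = 0.0601), with 25.4, 24.4 and 22.7 CPM against control values of 21.8, 21.7 and 22. All 3 βOHB libraries lay above the controls there, and the log2 fold change was 0.15 with a 95% interval of -0.01 to 0.3. In myotubes Hdac7 was at 11.5, 14.2 and 13.3 CPM with βOHB, below controls of 15.3, 14.5 and 15.5, at -0.22 with an interval of -0.5 to 0.07. It had the lowest adjusted p of the βOHB tests (edgeR adjusted p = 0.53). Over 25 of the 28 combinations of member and cell type, the 95% intervals of the βOHB effect lay between -0.5 and 0.42 on the log2 scale. The other 3, in which few reads fell on the gene, were wider. Hdac11 had an interval of -1.01 to 0.15 in adipocytes and of -0.6 to 0.56 in macrophages, and Hdac9 in hepatocytes one of -2.32 to 1.51. Macrophage markers in myotubes were at 105 to 271 CPM in controls, 42.2 to 104 with βOHB and 15.5 to 68.5 with butyrate, all 6 being lowered by each compound, and their part in the myotube values was not tested.

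βOHB differs from butyrate by a hydroxyl group on the third carbon, and the compounds were given at the same dose and time, so their libraries were also compared directly. Over these 28 pairs, butyrate and βOHB libraries differed for 6 of 7 members in adipocytes, 4 in macrophages, 6 in myotubes and 7 in hepatocytes (edgeR, adjusted over all genes), against 59.5, 64.7, 66 and 63.5% of all genes tested. Hdac11 had the largest rise over βOHB in adipocytes, a log2 difference of 3.41 ± 0.24 (edgeR adjusted p = 2.78e-15), with βOHB at 0.556, 0.582 and 0.856 CPM, and Hdac7 the largest drop in hepatocytes apart from Hdac9, at -2.38 ± 0.22 (edgeR adjusted p = 1.48e-11). The Hdac9 test in hepatocytes compared 1, 2 and 2 counts with 0 in each library and gives no fold, and its call (edgeR adjusted p = 0.0318) was lost without βOHB library 2 or 3 or any one butyrate library (edgeR adjusted p = 0.062 to 0.0722). In macrophages the Hdac5 difference of 0.23 (edgeR adjusted p = 0.00518) was 0.16 without βOHB library 3 (edgeR adjusted p = 0.0629). In myotubes the Hdac10 call was lost with library totals alone, at -0.21 (edgeR adjusted p = 0.125). That of Hdac4 there was lost with no filter on low counts, at 0.2 (edgeR adjusted p = 0.0703).

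A difference between the compounds was not called for 5 pairs. For Hdac10 in adipocytes it was -0.21 with a 95% interval of -0.44 to 0.02 (edgeR adjusted p = 0.113). In macrophages the interval was -0.09 to 0.19 for Hdac4 (edgeR adjusted p = 0.562), -0.36 to 0.2 for Hdac9 (edgeR adjusted p = 0.645) and -0.4 to 0.06 for Hdac10 (edgeR adjusted p = 0.194). In these pairs the libraries of the compounds overlapped. For Hdac7 in myotubes it was -0.27 with an interval of -0.56 to 0.03 (edgeR adjusted p = 0.105), the third butyrate library again lying above those with βOHB, and without that library it was -0.61 (edgeR adjusted p = 1.71e-05). With all libraries kept, limma-voom called it at -0.33 (adjusted p = 0.0382), as did edgeR without the filter on low counts at -0.29 (edgeR adjusted p = 0.0219). Without the first βOHB library the Hdac10 difference in adipocytes was called at -0.31 (edgeR adjusted p = 0.0311), and with library totals alone as the scale that of Hdac4 in macrophages at 0.28 (edgeR adjusted p = 0.000744). The intervals of these 5 pairs all include differences other than 0, so the compounds are not shown to act alike on them.

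The size of the butyrate response differed between the 4 cell types for 6 of the 7 members (edgeR test with 3 degrees of freedom, adjusted p below 0.05), against 74.5% of all genes tested. Hdac11 had the smallest adjusted p at 2.23e-09 (edgeR), followed by Hdac5 at 4.47e-07, Hdac7 at 2.25e-06 and Hdac9 at 0.000133. For Hdac6 it was 0.0196 (edgeR), called in 29 of 31 alternatives and lost without the filter on low counts (adjusted p = 0.0575) and without hepatocyte control library 1 (adjusted p = 0.058). For Hdac4 it was 0.0487 (edgeR), called in only 10 of 31 alternatives, with adjusted p from 0.0164 to 0.404. Libraries of all 4 cell types lost that Hdac4 call when left out, with the highest p without the third or the first macrophage butyrate library (edgeR adjusted p = 0.2 and 0.171). Hdac10 had an adjusted p of 0.207 (edgeR) and was called in 0 of 31 alternatives. For βOHB, 0 of 7 members were called by edgeR in the same test, with a lowest unadjusted p of 0.162, 0 below 0.05, and 0 called by DESeq2 or limma-voom, against 0.978% of all genes.

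Pair by pair, 20 of 42 differences in the butyrate response passed, in counts of 4, 3, 3, 2, 5 and 3 of 7 for adipocytes with macrophages, adipocytes with myotubes, adipocytes with hepatocytes, macrophages with myotubes, macrophages with hepatocytes and myotubes with hepatocytes, where 36.6, 36.8, 41.4, 43.5, 44.4 and 48.4% of all genes did. The 5 of macrophages with hepatocytes include Hdac9 (edgeR adjusted p = 0.026), which rests on hepatocyte control counts of 1, 4 and 1 against 0 in every butyrate library, so no size is given. That call was lost without hepatocyte control library 2 (edgeR adjusted p = 0.139) or any one hepatocyte butyrate library (edgeR adjusted p = 0.0532 to 0.0631). The Hdac6 call of this pair (edgeR adjusted p = 0.0232) was lost with library totals alone and with no filter (edgeR adjusted p = 0.252 and 0.069). Leaving out hepatocyte control library 1 or hepatocyte butyrate library 3 lost it too (edgeR adjusted p = 0.0747 and 0.0542). The 4 of adipocytes with macrophages include Hdac9 (edgeR adjusted p = 0.00666), lost without adipocyte control library 1 (edgeR adjusted p = 0.0533). Hdac4 in this pair (edgeR adjusted p = 0.0172) was lost with library totals alone and with no filter (edgeR adjusted p = 0.185 and 0.144). It was also lost without adipocyte butyrate library 1, macrophage control library 2 or macrophage butyrate library 1 or 3 (edgeR adjusted p = 0.0579 to 0.0813). Hdac11 differed in all 6 pairs, although its difference between adipocytes and macrophages of 0.87 (edgeR adjusted p = 0.0271) was lost with limma-voom (adjusted p = 0.0777) and without adipocyte control library 1, adipocyte butyrate library 2, macrophage control library 2 or 3 or macrophage butyrate library 1 (0.72 to 0.88, edgeR adjusted p = 0.0506 to 0.0738). Its rise was larger in adipocytes than in myotubes by 2.24 ± 0.23 (edgeR adjusted p = 1.99e-09) and smaller in myotubes than in hepatocytes, with a difference of myotubes minus hepatocytes of -0.54 ± 0.16 (edgeR adjusted p = 0.0067). Hdac5 rose more in adipocytes than in macrophages by 0.7 ± 0.1 (edgeR adjusted p = 2.21e-06) and than in myotubes by 0.6 ± 0.1 (edgeR adjusted p = 2.3e-05), while adipocytes and hepatocytes differed by 0.15 ± 0.1 (edgeR adjusted p = 0.269). The drop of Hdac7 was deeper in hepatocytes than in adipocytes by 1.11 ± 0.26 (edgeR adjusted p = 0.000583), than in macrophages by 1.53 ± 0.27 (edgeR adjusted p = 1.7e-05) and than in myotubes by 1.85 ± 0.27 (edgeR adjusted p = 6.64e-07). Hdac9 dropped more in myotubes than in macrophages by 0.91 ± 0.18 (edgeR adjusted p = 0.000158), and the values for adipocytes and myotubes were equal to 2 decimals.

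Partners and targets of these deacetylases were taken from lists that were set with earlier results of these data in view, 59 tested genes in all. With βOHB edgeR called 0 of the 59 in each cell type, and 7 had an unadjusted p below 0.05 in adipocytes, 1 in macrophages, 12 in myotubes and 5 in hepatocytes, where 7.15, 2.33, 13.7 and 5.51% of all genes tested did. The counts under butyrate that follow are to be read against the shares of all genes given above, 30.7, 31.9, 33.1 and 31% raised and 30.3, 33.2, 33.4 and 32.4% lowered in adipocytes, macrophages, myotubes and hepatocytes, and nothing is called particular to a list. With butyrate, of the class I deacetylases, which form the nuclear corepressors, 2 were raised and 0 lowered in adipocytes, 2 and 1 in macrophages, 2 and 0 in myotubes, and 3 and 1 in hepatocytes, of 4 tested. Of these Hdac1 was raised by 0.8, 0.83, 0.74 and 0.32 on the log2 scale in adipocytes, macrophages, myotubes and hepatocytes, and Hdac3, the enzyme that class IIa members recruit, by 0.59, 0.68, 0.18 and 0.67. The genes of these lists that are named here and below as moving alike in all 4 cell types were picked after their values were seen, and their direction is a description.

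Of the MEF2 factors, which class IIa members repress, 3 of 4 were tested. Butyrate lowered 1 and raised 1 in adipocytes, lowered 2 and raised 1 in macrophages, lowered 3 in myotubes, and lowered 2 and raised 1 in hepatocytes. Mef2d fell by 0.72, 0.48, 1.21 and 0.69 on the log2 scale in adipocytes, macrophages, myotubes and hepatocytes. Mef2c was raised by 0.77 in adipocytes and 0.38 in macrophages, and fell by 1.03 in myotubes and 0.71 in hepatocytes. For the NCoR/SMRT complex, which joins class IIa members to HDAC3, all 5 genes were tested, of which adipocytes had 2 raised and 0 lowered, macrophages 0 raised and 3 lowered, myotubes 2 raised and 2 lowered, and hepatocytes 1 raised and 1 lowered. The list of kinases that export class IIa members had 14 of 16 genes tested, and 6 were raised and 2 lowered in adipocytes, 4 and 4 in macrophages, 7 and 5 in myotubes, and 3 and 6 in hepatocytes. Sik3 was raised in all 4, by 0.23 to 0.59, and Camk2d was lowered in all 4.

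The 14-3-3 genes, whose products bind phosphorylated class IIa members had 5 of 7 lowered and 0 raised in adipocytes, 5 lowered and 1 raised in macrophages, 3 lowered and 1 raised in myotubes, and 5 lowered and 0 raised in hepatocytes. Their median log2 fold changes were -0.33, -0.3, -0.03 and -0.45, where the median over all genes tested was 0, 0, 0 and -0.0083. Ywhah fell by 0.81, 1.46, 0.54 and 1.4 on the log2 scale in adipocytes, macrophages, myotubes and hepatocytes, and Ywhaz by 0.93, 1.21, 0.63 and 1.18. Of 8 target genes of class IIa members tested, 4 were raised and 2 lowered in adipocytes, 5 and 0 in macrophages, 4 and 2 in myotubes, and 4 and 2 in hepatocytes. Raised in all 4 were Nr4a1, a nuclear receptor gene that MEF2 controls, by 1.03, 1.39, 1.82 and 1.57, Klf2, a factor of endothelial cells, by 1.03, 0.43, 0.85 and 1.82, and Ppargc1a, the coactivator of mitochondrial genes, by 0.72, 2.92, 1.5 and 2.91. The other targets did not move alike. Slc2a4 was raised in 3 cell types and lowered in 1, Pck1 raised in 1 and lowered in 2, and Myog raised in 1 and lowered in 1. G6pc and Mmp10 were each lowered in 1 and raised in 0.

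For the partners of class IIb, the 8 genes tied to HDAC6 through tubulin, cortactin or ubiquitin had 2 raised and 5 lowered in adipocytes, 2 and 3 in macrophages, 3 and 3 in myotubes, and 0 and 5 in hepatocytes. Vcp, the ATPase that takes ubiquitin-bound proteins from HDAC6, fell by 0.73, 0.78, 0.54 and 1.05 on the log2 scale in adipocytes, macrophages, myotubes and hepatocytes. Of 10 genes of polyamine metabolism, where HDAC10 acts, 6 were raised and 2 lowered in adipocytes, 6 and 1 in macrophages, 7 and 1 in myotubes, and 5 and 2 in hepatocytes, with medians of 0.45, 0.67, 0.38 and 0.23. Oaz2, an antizyme of ornithine decarboxylase, was raised by 1.23, 1.23, 0.69 and 1.53, and Srm, spermidine synthase, fell by 1.38, 0.67, 0.81 and 0.78.

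Across the 12 group means of log2 CPM, the genes most like each member were found as a description. The highest Pearson correlations were 0.968 for Hdac7 with Eng, 0.958 for Hdac5 with March9, 0.958 for Hdac4 with Soga3, 0.994 for Hdac9 with Plxnb3, 0.988 for Hdac6 with Tedc2, 0.982 for Hdac10 with Mtx1 and 0.986 for Hdac11 with Tspan33. Next to these stood Zfp982 for Hdac7 (0.957), Xpr1 for Hdac5 (0.956), Hoxa13 for Hdac4 (0.95), Edil3 for Hdac9 (0.992), Tmem19 for Hdac6 (0.986), Faf2 for Hdac10 (0.975) and Myh10 for Hdac11 (0.982). The 12 points share libraries and scaling between genes, and they mix cell types with treatments.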

How the data were processed

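The authors sequenced RNA of 36 libraries in paired ends, mapped the reads with Salmon 1.2.1 to GENCODE M25 transcripts of GRCm38.p6 and summed them per gene with tximport 1.16.1, and they deposited estimated counts, of which 55.6% above 0 were exactly whole as deposited, with no tolerance. Their methods state a scaling by average transcript length and by library size, and the library totals differ. The butyrate libraries carry butyric acid in their titles, with bOHB in brackets in the source name. The rounded values entered the quasi-likelihood test of edgeR 4.0.16 (R 4.3.3, TMM factors of 0.823 to 1.2, 1 mean for each of 12 groups), with genes above 1 CPM in at least 6 libraries kept, and p-values adjusted by Benjamini-Hochberg over the 15340 genes. A gene was called at an adjusted p below 0.05. Fold changes of 0 counts were held against 3 counts per library, a floor that covers counting error only. Symbols, exon lengths and gene positions came from GENCODE M21, which matched 54094 of 54347 identifiers, and promoters from RefSeq.

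The members, lists and markers were chosen with earlier results of these data known. Named were all members, of each list at most 3 genes per comparison with the smallest p, the other class IIa targets by direction only, and the 2 genes most like each member. The study's own P below 0.001, other scalings and filters, cell types fitted alone, a replicate block, DESeq2 1.42.0, limma-voom (limma 3.58.1) and leaving out each library were tried. On data simulated for butyrate in adipocytes over 15340 genes, 50 genes each were changed by 0.25, 0.5, 1 and 2 on the log2 scale. Of these 18, 62, 90 and 100% were called. All other genes of that comparison were left unchanged, while 61% of genes were called in the real one, so these shares do not give its power. Replicate libraries differed by more than sampling noise.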

Additional observations from a re-analysis of the deposited data

Results flagged for a closer look

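The butyrate response of 6 genes differed between the 4 cell types by a direct test of the difference (edgeR quasi-likelihood test with 3 degrees of freedom, adjusted over all genes), which is what brought them here. The adjusted p was 2.23e-09 for Hdac11 (log2 fold changes of 2.98, 2.11, 0.74 and 1.28 in adipocytes, macrophages, myotubes and hepatocytes), 4.47e-07 for Hdac5 (0.86, 0.17, 0.26 and 0.71), 2.25e-06 for Hdac7 (-1.22, -0.8, -0.48 and -2.33) and 0.000133 for Hdac9 (-1.01, -0.1 and -1.01, with no fold in hepatocytes). It was 0.0196 for Hdac6 (0.5, 0.54, 0.72 and 0.83) and 0.0487 for Hdac4 (0.34, 0.04, 0.24 and 0.17). These 6 of 7 genes stand beside 74.5% of all genes tested. Single outlying libraries were not tested within the groups of 3.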

How the results depend on the processing

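Of 295 recounts of the 16 counts of calls given above, 289 lay within 1.5 times the count reported. This rule is loose for counts this small, since 5 calls in place of 7 pass it, and the βOHB counts were 0 throughout. For single members under butyrate, call status and sign were kept in 150 fits without 1 library and in 212 other fits. A call was lost in 16 and 10 fits and gained in 0 and 1, and only the sign changed in 2 and 1. With the study's own P below 0.001 as the threshold, butyrate called 3 of 7 members in macrophages (49.7% of all genes tested) and 4 in hepatocytes (49.3%), butyrate and βOHB differed for 3 in myotubes (49%), and 12 of 42 pair differences in the butyrate response passed (22.1 to 32.1% of all genes by pair). Without one library at a time the macrophage count was 3 to 5, with 3 when control library 2 or butyrate library 2 was left out. The causes were not tested, except that the stricter threshold calls fewer genes by construction. Same-numbered libraries of a cell type were not taken as pairs, since their deviations correlated at -0.26 to 0.27 over 36 comparisons, with 4 over 0.1. In 11 of the 36 the own number gave the best correlation, 5 of 9 in adipocytes, where all 3 numbers of control and butyrate did so at 0.02 to 0.05. The fit with the number as a block called 6, 5, 7 and 7 members for butyrate in adipocytes, macrophages, myotubes and hepatocytes, 0 for βOHB in each, 6, 4, 6 and 7 between the compounds, and 20 of 42 pair differences, and it changed no call of a member under butyrate.

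Values near 0 changed sign. With library totals alone as the scale, which moved the median of all genes under butyrate by 0.068, 0.19, 0.13 and 0.015 in adipocytes, macrophages, myotubes and hepatocytes, Hdac9 in macrophages under butyrate was 0.13. Leaving out 1 library, Hdac4 in macrophages under butyrate ranged from -0.01 to 0.1. The others were βOHB values, uncalled in every setting. In myotubes Hdac4 was -0.01 with RLE size factors or DESeq2, -0.05 with library totals, and -0.02 with no filter, filterByExpr or myotube libraries alone, Hdac5 was -0.04 with library totals, -0.01 with no filter and 0 with filterByExpr or myotube libraries alone, and Hdac9 and Hdac6 were -0.02 with library totals. In hepatocytes Hdac6 was -0.01 with RLE size factors, library totals or DESeq2 and 0 elsewhere, the replicate block included, and in adipocytes Hdac9 was 0.01 with limma-voom. Without 1 library, βOHB values ranged in adipocytes from -0.13 to 0.25 (Hdac9) and 0 to 0.17 (Hdac10), in macrophages from -0.05 to 0.06 (Hdac4), -0.12 to 0 (Hdac5), -0.01 to 0.15 (Hdac7), -0.13 to 0.04 (Hdac9) and -0.14 to 0.18 (Hdac11), in myotubes from -0.03 to 0.06 (Hdac4), -0.02 to 0.07 (Hdac5), -0.01 to 0.09 (Hdac9) and -0.09 to 0.03 (Hdac11), and in hepatocytes from -0.1 to 0.01 (Hdac4), -0.12 to 0.04 (Hdac5), -0.02 to 0.11 (Hdac7), -0.74 to 0.53 (Hdac9) and -0.12 to 0.08 (Hdac6). Why they moved was not tested. Depth limits Hdac9 in hepatocytes, with 0 to 4 counts, and Hdac11 in adipocytes and macrophages without butyrate, with 11 to 23 counts a library.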
